A study of Mus musculus with 36 samples.

Results

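The epithelial sodium channel and the mineralocorticoid pathway that governs it were followed through 9 genes in mouse kidneys that lacked the clock factor BMAL1 in the tubule, were diabetic, or both. The genes were chosen by symbol from the 53715 genes of the count files: the channel subunits Scnn1a, Scnn1b and Scnn1g, the kinase Sgk1, the ubiquitin ligase Nedd4l, the mineralocorticoid receptor Nr3c2, the steroid enzyme Hsd11b2 and the kinases Wnk1 and Wnk4. All 9 of 9 were found and all 9 passed the filter on low counts, which left 15637 genes for testing.

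Whole-kidney RNA was sequenced in 36 samples, 9 in each of 4 groups. STZ-cKOt mice carried floxed Bmal1 with the Pax8-rtTA and LC1 transgenes, which together place a doxycycline-inducible Cre recombinase in the renal tubule, and were made diabetic with streptozotocin (STZ), which destroys the insulin-producing beta cells. PBS-cKOt mice had the same genotype and received vehicle (PBS). STZ-control and PBS-control mice were littermates with floxed Bmal1 but without the transgenes. All 4 groups drank doxycycline at 2 mg/ml for 2 weeks from an age of 8 weeks. Injections followed 1 week later, daily for 5 days (50 mg/kg of STZ), and kidneys were taken 8 weeks after the last one at zeitgeber time 9, which is 9 h after lights on. Other cell types of the kidney kept Bmal1.

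The channel is built from alpha (Scnn1a), beta (Scnn1b) and gamma (Scnn1g) subunits and lets sodium enter the principal cells of the connecting tubule and collecting duct from the urine side. Aldosterone binds the mineralocorticoid receptor (Nr3c2), while Hsd11b2 inactivates corticosterone in the same cells and so keeps that more abundant steroid off the receptor. The receptor induces Sgk1, a kinase that phosphorylates the ubiquitin ligase encoded by Nedd4l and thereby slows removal of the channel from the membrane. Wnk1 and Wnk4 encode kinases of the distal convoluted tubule that act through Stk39 and Oxsr1 on the sodium chloride cotransporter Slc12a3 and set how much sodium reaches the channel. BMAL1 with its partner CLOCK activates genes through E-boxes, and several genes of this pathway follow a daily rhythm in mouse kidney.

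Libraries held 16893364 to 22347538 reads assigned to genes. Mitochondrial genes took 12.1% to 25.57% of them. The count of Arntl, the gene for BMAL1, was higher in cKOt kidneys: it ran from 13.0 to 17.1 CPM (counts scaled to a common library size) in STZ-cKOt, from 12.9 to 17.4 in PBS-cKOt, from 1.18 to 2.64 in 8 STZ-control libraries and from 1.09 to 2.4 in PBS-control. A count over the whole gene does not separate deleted from remaining exons and so is no check of the deletion. The library labelled STZ-control 2 held 13.4 CPM of Arntl, in the range of the cKOt libraries and unlike the rest of its group. On the first principal component of log2 CPM, the axis of widest spread over all tested genes, it lay at -13.5. The control libraries ran from -31 to -7.12 on that axis and the cKOt libraries from 9.12 to 29.2. The reason for its Arntl level was not tested. In 4 further libraries (PBS-cKOt 1 and 3, STZ-control 7 and 8) CPM fell most steeply with exon length, with slopes of log2 CPM on log2 exon length from -0.17 to -0.0753, against -0.0605 in the next library. Results of the 9 genes that rest on these 5 libraries are given with and without them. For the wider pathway this is done for counts of called genes only.

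The genotypes (cKOt against control) were compared among PBS mice and among STZ mice, and the treatments (STZ against PBS) among control mice and among cKOt mice, across all genes. A gene was called when its Benjamini-Hochberg adjusted p from edgeR's quasi-likelihood test was under 0.05 over the 15637 genes. Fold changes are given on the log2 scale with their standard errors (SE). Comparisons that use the same group share its libraries and are not independent of each other.

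**Figure D1:**
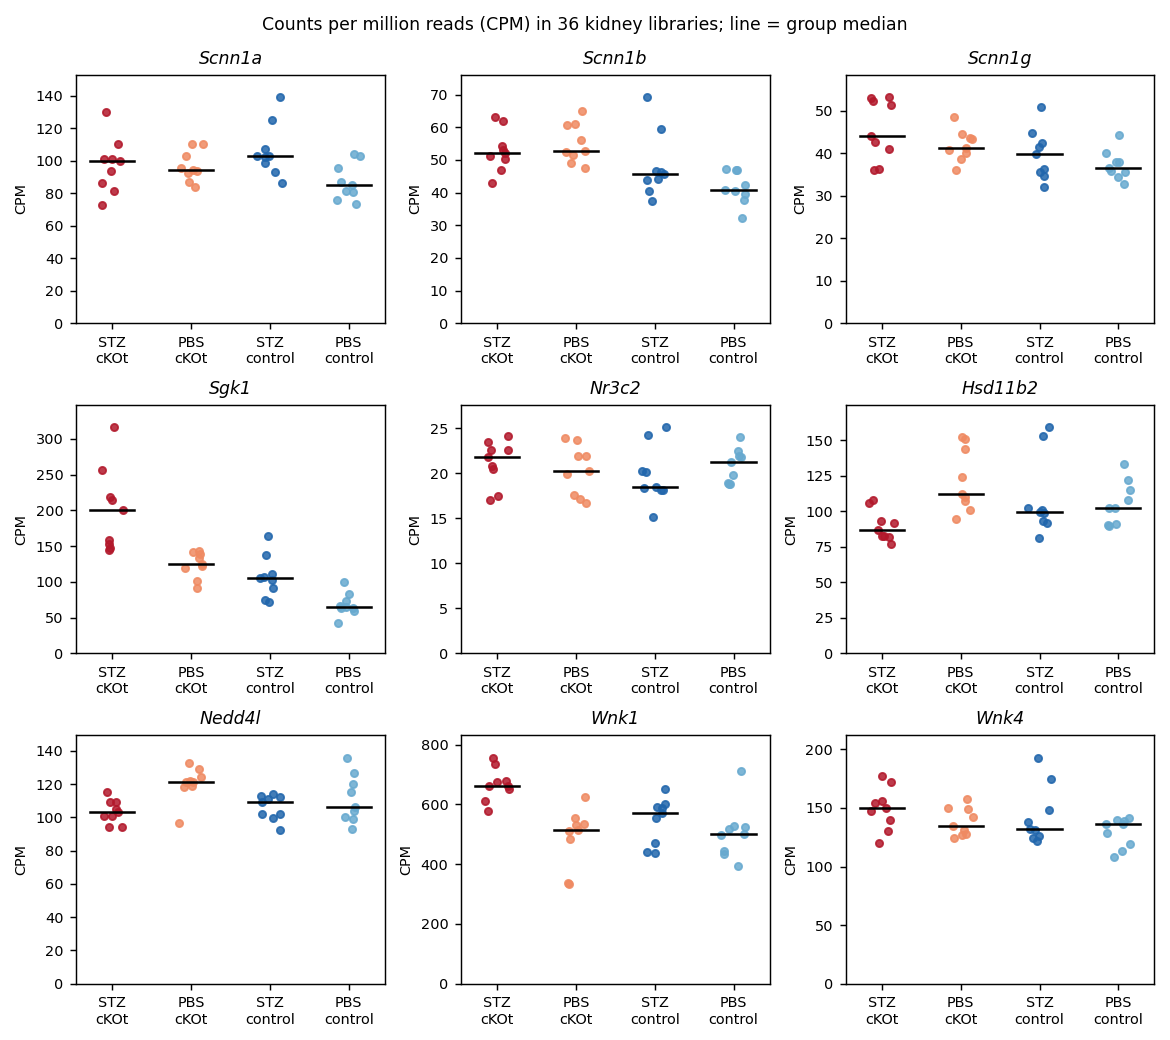
Level of each of the 9 genes in CPM (vertical axes, starting at 0) in the 36 libraries. Each point is 1 kidney, coloured by group, and the line is the group median. Sgk1 medians are 201 CPM in STZ-cKOt, 125 CPM in PBS-cKOt, 106 CPM in STZ-control and 64.9 CPM in PBS-control, whereas the Nr3c2 medians lie between 18.5 and 21.8 CPM in all 4 groups.

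In cKOt kidneys of PBS mice, Sgk1 and Scnn1b were higher and none of the 9 genes was lower. These 2 of 9 genes are 22.2% of the pathway, and 23.4% of all tested genes were called in this comparison (10.9% higher and 12.5% lower). In cKOt kidneys of STZ mice, Sgk1 and Wnk1 were higher, again 22.2% of the 9, where 19.6% of all tested genes were called (9.52% higher and 10.1% lower). In control mice STZ raised Sgk1 and Scnn1a, 22.2% of the 9, against 12.3% of all tested genes (6.34% higher and 5.93% lower). In cKOt mice STZ raised Sgk1 and Wnk1 and lowered Hsd11b2 and Nedd4l. Those 4 of 9 genes are 44.4%, against 11.6% of all tested genes (6% higher and 5.63% lower). The median log2 fold change of the 9 genes was 0.15, 0.09, 0.11 and 0.06 in these 4 comparisons in the order given, and that of all tested genes lay between -0.008 and 0.005.

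**Figure D2:**
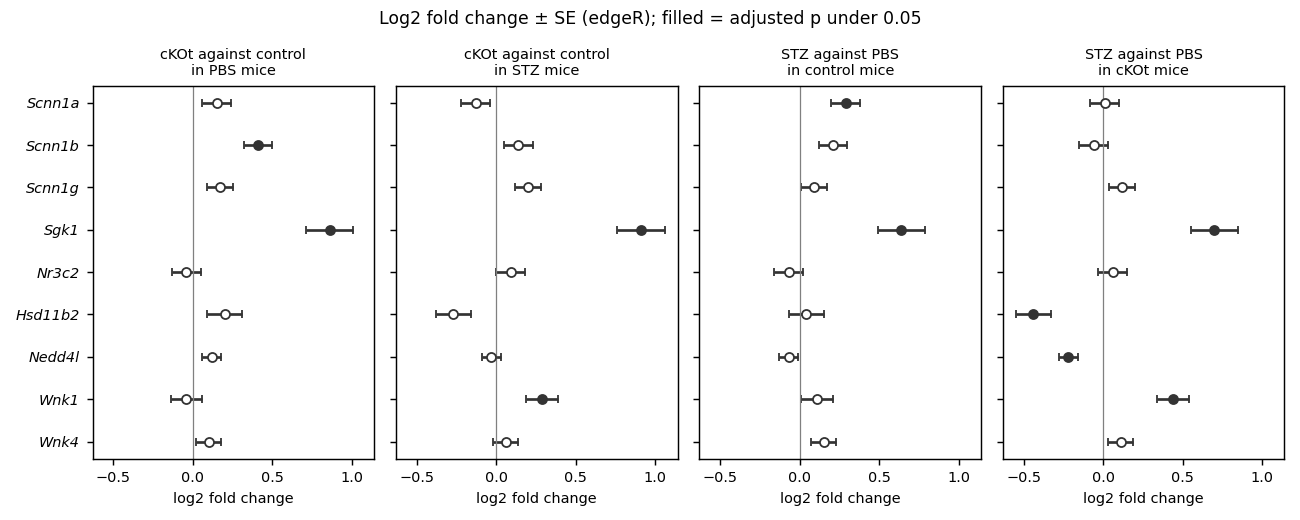
Log2 fold change (horizontal axis) with its SE for each of the 9 genes in the 4 comparisons, from edgeR. Filled points have an adjusted p under 0.05. Sgk1 is filled in every panel, at 0.86, 0.91, 0.64 and 0.70 from left to right, and Hsd11b2 and Nedd4l lie left of 0 and are filled in the right-hand panel.

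Sgk1 (chromosome 10, 21882184 to 21999903, plus strand, in GRCm38) changed in every comparison. Its level was 144 to 316 CPM in STZ-cKOt with a median of 201, and 91.8 to 143 CPM in PBS-cKOt with a median of 125. STZ-control kidneys had 71.3 to 164 CPM with a median of 106, and PBS-control kidneys had 42.7 to 99.3 CPM with a median of 64.9. Every STZ-cKOt kidney lay above every PBS-cKOt and every PBS-control kidney, while the PBS-cKOt and STZ-control ranges overlapped.

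Without BMAL1 in the tubule, Sgk1 was higher by 0.86 ± 0.15 in PBS mice (log2, SE, edgeR adjusted p = 3.96e-05), and 8 of 9 PBS-cKOt kidneys exceeded the highest PBS-control kidney. In STZ mice the difference between cKOt and control was 0.91 ± 0.15 (edgeR adjusted p = 1.57e-05), with 5 of 9 STZ-cKOt kidneys above the highest STZ-control kidney. STZ raised Sgk1 by 0.64 ± 0.15 in control mice (edgeR adjusted p = 0.00396) and by 0.70 ± 0.15 in cKOt mice (edgeR adjusted p = 0.0016). The STZ effects in the 2 genotypes differed by 0.05 ± 0.21 (edgeR adjusted p = 0.923; 95% interval -0.38 to 0.49). The mean was 201 CPM in STZ-cKOt and 68.6 CPM in PBS-control, a ratio of 2.93. Without the library labelled STZ-control 2, which held 137 CPM, the differences that involve STZ-control were 0.96 between genotypes and 0.59 between treatments, and both stayed called. All 4 calls held in each of the 36 fits that left out 1 library and in the 11 other settings.

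Sgk1 has 6 start sites in RefSeq, so its count pools transcripts that begin at different promoters. The promoter table of RefSeq (GRCm38.p6) held 6 of the 9 genes with 11 windows in all. It had no entry for Scnn1a, Hsd11b2 and Nedd4l. The 250 bases before the start are printed for the start of Sgk1 that holds an E-box, because Sgk1 moved with the genotype in both treatments, and for Scnn1b and Scnn1g, because they encode partner subunits and only Scnn1b was called in PBS mice. Capitals mark the E-box CACGTG, the ROR element AGGTCA on either strand (read as TGACCT on the other) and the steroid receptor palindrome, which is AGAACA, any 3 bases and TGTTCT. That palindrome was added to the search after the sequence had been seen.
Sgk1, the fifth of its start sites, plus strand, chr10:21993640-21993889: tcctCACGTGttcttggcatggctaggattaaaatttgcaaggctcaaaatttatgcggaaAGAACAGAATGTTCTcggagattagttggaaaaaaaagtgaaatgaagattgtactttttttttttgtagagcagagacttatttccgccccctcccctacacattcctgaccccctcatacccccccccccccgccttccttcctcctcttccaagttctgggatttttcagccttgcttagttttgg
Scnn1b, plus strand, chr7:121864788-121865037: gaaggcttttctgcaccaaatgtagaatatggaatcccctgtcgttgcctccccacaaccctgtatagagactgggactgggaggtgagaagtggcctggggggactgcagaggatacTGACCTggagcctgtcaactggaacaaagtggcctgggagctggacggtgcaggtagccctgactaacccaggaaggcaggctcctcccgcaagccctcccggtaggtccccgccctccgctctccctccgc
Scnn1g, plus strand, chr7:121734229-121734478: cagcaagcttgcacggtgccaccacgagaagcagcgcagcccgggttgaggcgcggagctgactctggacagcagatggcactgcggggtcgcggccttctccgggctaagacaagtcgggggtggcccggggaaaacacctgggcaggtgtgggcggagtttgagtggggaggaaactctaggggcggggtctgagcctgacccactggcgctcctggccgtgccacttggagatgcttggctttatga

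The Sgk1 window holds an E-box that begins at -246 and the palindrome at -189, counted back from the start site. The last 2 letters of the E-box, TG, also belong to a half-site TGTTCT, and the palindrome itself contains that half-site and its complement. The other 5 Sgk1 windows and those of Scnn1b, Scnn1g, Nr3c2, Wnk1 and Wnk4 held no E-box. Scnn1b has a ROR element on the opposite strand at -132, and Scnn1g has none of the marked motifs. Of the Sgk1 windows not printed, those of start sites 2 and 3 hold a ROR element, at -63 and -101. Start sites 1 and 4 hold a half-site, at -195 and -13. Searched on both strands of the same 250 bases in 32851 RefSeq promoters, the E-box was found in 6.02%, the ROR element in 14.0%, the half-site in 16.1% and the palindrome in 3 promoters (0.00913%). The D-box TTATGTAA, found in 0.819%, was in none of the 11 windows. The shares are per window, and Sgk1 was searched in 6. These are matches of letters and not measured sites.

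Among the channel subunits, Scnn1b (chromosome 7, 121865038 to 121918514, plus strand) differed most clearly with genotype. Its level was 42.8 to 63.1 CPM in STZ-cKOt with a median of 52.1, and 47.4 to 64.9 CPM in PBS-cKOt with a median of 52.6. STZ-control kidneys had 37.3 to 69.2 CPM with a median of 45.7, and PBS-control kidneys had 32.1 to 47.1 CPM with a median of 40.9. All 9 PBS-cKOt kidneys lay above all 9 PBS-control kidneys, a log2 difference of 0.41 ± 0.09 (edgeR adjusted p = 0.00104). Among STZ mice the groups overlapped and the difference was 0.14 ± 0.09 (edgeR adjusted p = 0.324). The highest STZ-control values, 69.2 and 59.5 CPM, came from STZ-control 7 and 8, and the other 7 ran up to 46.5 CPM. Without the 4 libraries with steep exon-length slopes the difference in STZ mice was 0.29 (edgeR adjusted p = 0.00648).

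Scnn1a (chromosome 6, 125320659 to 125344943, plus strand) encodes the subunit without which the others form little channel. It had 72.6 to 130 CPM in STZ-cKOt, 83.9 to 110 CPM in PBS-cKOt, 86.3 to 139 CPM in STZ-control and 73.4 to 104 CPM in PBS-control, with medians of 100, 94.1, 103 and 84.8 CPM in the same order. In control mice STZ raised it by 0.29 ± 0.09 (edgeR adjusted p = 0.0329), and all 9 STZ-control kidneys lay above the PBS-control median although the ranges overlapped. In cKOt mice the STZ effect was 0.01 ± 0.09 (edgeR adjusted p = 0.966). The difference between these effects was -0.28 ± 0.13 (edgeR adjusted p = 0.384). The call in control mice did not hold without the 4 libraries with steep slopes (0.19, edgeR adjusted p = 0.177), which include the STZ-control kidneys with 139 and 125 CPM. It was also lost without PBS-control 1, 2, 4, 6 or 9 or STZ-control 7 or 8 alone and held in 29 of 36 such fits, with an adjusted p of 0.0181 to 0.0852.

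Scnn1g (chromosome 7, 121734479 to 121768475, plus strand) had 36.1 to 53.2 CPM in STZ-cKOt, 36 to 48.5 CPM in PBS-cKOt, 32.1 to 50.8 CPM in STZ-control and 32.7 to 44.4 CPM in PBS-control. All 4 ranges overlapped. The difference between cKOt and control was 0.20 ± 0.08 in STZ mice (edgeR adjusted p = 0.0856) and 0.17 ± 0.08 in PBS mice (edgeR adjusted p = 0.139). In STZ mice it was 0.29 without the 4 libraries (edgeR adjusted p = 0.00801), and it was also called without STZ-control 7, STZ-cKOt 4 or STZ-cKOt 6 alone.

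Per length of exon, expressed as TPM (which scale both to exon length and to library size), the alpha subunit stood above the beta and the beta above the gamma subunit in the median of every group. The ratio of Scnn1a to Scnn1b in TPM was 1.01 to 1.34 in STZ-cKOt with a median of 1.19, and 0.936 to 1.34 in PBS-cKOt with a median of 1.16. In STZ-control it was 1.28 to 1.67 with a median of 1.42, and in PBS-control it was 1.15 to 1.61 with a median of 1.29. The ratio of Scnn1a to Scnn1g had medians of 1.53 in STZ-cKOt, 1.73 in PBS-cKOt, 1.95 in STZ-control and 1.68 in PBS-control. These ratios were not tested.

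Nedd4l (chromosome 18, 64887705 to 65217828, plus strand) encodes the ligase that Sgk1 restrains. It had 94.2 to 115 CPM in STZ-cKOt with a median of 103, and 96.9 to 133 CPM in PBS-cKOt with a median of 121. STZ-control kidneys had 92.7 to 114 CPM with a median of 109, and PBS-control kidneys had 92.8 to 136 CPM with a median of 106. With STZ it fell by 0.22 ± 0.06 in cKOt mice (edgeR adjusted p = 0.0184), and all 9 STZ-cKOt kidneys lay under the PBS-cKOt median. In control mice the change with STZ was -0.07 ± 0.06 (edgeR adjusted p = 0.53), and the difference between the genotypes in that effect was -0.15 ± 0.09 (edgeR adjusted p = 0.443). The call held in all 36 fits without 1 library.

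Of the receptor and its guarding enzyme, only the enzyme was called. Hsd11b2 (chromosome 8, 105518755 to 105523988, plus strand) had 77.0 to 108 CPM in STZ-cKOt with a median of 86.5, and 94.8 to 152 CPM in PBS-cKOt with a median of 112. It had 81.5 to 159 CPM in STZ-control with a median of 99.7 and 89.6 to 133 CPM in PBS-control with a median of 102. With STZ it fell by 0.44 ± 0.11 in cKOt mice (edgeR adjusted p = 0.00759), and 7 of 9 STZ-cKOt kidneys lay below the lowest PBS-cKOt kidney. Between genotypes it differed by 0.20 ± 0.11 in PBS mice (edgeR adjusted p = 0.201) and, among STZ mice, by -0.27 ± 0.11 (edgeR adjusted p = 0.0805), and the second of these was -0.32 without STZ-control 4 alone (edgeR adjusted p = 0.0418) but -0.08 without the 4 libraries with steep slopes (edgeR adjusted p = 0.571).

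In control mice the change of Hsd11b2 with STZ was 0.04 ± 0.11 (edgeR adjusted p = 0.859). The difference between the STZ effects was -0.47 ± 0.16 with an unadjusted p of 0.00471, the lowest of the 9 genes, and an edgeR adjusted p of 0.332. STZ-control 7 and 8 held 159 and 153 CPM, where the other STZ-control kidneys ran from 81.5 to 102. Without the 4 libraries with steep slopes the difference between the effects was -0.20 (edgeR adjusted p = 0.966), whereas the fall with STZ in cKOt mice was -0.34 and stayed called (edgeR adjusted p = 0.00787).

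Nr3c2 (chromosome 8, 76899442 to 77245012, plus strand), the receptor, was called in no comparison. It had 17.0 to 24.1 CPM in STZ-cKOt, 16.7 to 23.9 CPM in PBS-cKOt, 15.1 to 25.1 CPM in STZ-control and 18.8 to 24.0 CPM in PBS-control. Its 4 log2 differences lay between -0.07 and 0.09, and their 95% intervals between -0.25 and 0.27. It was the lowest of the 9 genes per length of exon, with group medians of 7.16 to 9.34 TPM, and Hsd11b2 was the highest with 136 to 162 TPM.

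The kinase Wnk1 (chromosome 6, 119923969 to 120038672, minus strand) was higher in STZ-cKOt kidneys than in either group it was compared with. It had 577 to 757 CPM in STZ-cKOt with a median of 663, and 334 to 625 CPM in PBS-cKOt with a median of 513. STZ-control kidneys had 437 to 653 CPM with a median of 573, and PBS-control kidneys had 394 to 712 CPM with a median of 502. Its count pools the full-length kinase with the short kidney-specific form that lacks kinase activity, and the 2 forms cannot be told apart here.

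In cKOt mice STZ raised Wnk1 by 0.44 ± 0.10 (edgeR adjusted p = 0.00354), and 7 of 9 STZ-cKOt kidneys exceeded the highest PBS-cKOt kidney. Without the 4 libraries with steep slopes, 2 of which gave the lowest PBS-cKOt values of 334 and 337 CPM, the rise was 0.32 (edgeR adjusted p = 0.00898). Among STZ mice Wnk1 was 0.29 ± 0.10 higher in cKOt than in control kidneys (edgeR adjusted p = 0.0414). That call held in 25 of 36 fits without 1 library, at an adjusted p of 0.0225 to 0.0875, and was lost without STZ-control 4, 6, 7 or 8 or STZ-cKOt 1, 2, 3, 4, 5, 8 or 9. Without the 4 libraries it was 0.22 (edgeR adjusted p = 0.0571). In PBS mice the genotypes differed by -0.04 ± 0.10 (edgeR adjusted p = 0.808), and in control mice STZ changed it by 0.11 ± 0.10 (edgeR adjusted p = 0.525). This change in control mice was 0.10 to 0.25 over 11 other settings. It was called in 2 of them, with 2 surrogate variables and with the exon-length slope as covariate. The difference between the STZ effects in the 2 genotypes was 0.33 ± 0.15, and 0.12 to 0.34 in 10 other settings.

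Wnk4 (chromosome 11, 101260567 to 101277409, plus strand) was called in no comparison. It had 120 to 177 CPM in STZ-cKOt, 124 to 158 CPM in PBS-cKOt, 122 to 193 CPM in STZ-control and 108 to 141 CPM in PBS-control. Its log2 differences were 0.06 to 0.15, with 95% intervals between -0.10 and 0.32. Without the 4 libraries with steep slopes, which hold the highest STZ-control values, it was called between genotypes in STZ mice (0.19, edgeR adjusted p = 0.0476, against 0.06 and 0.646 with them). The ratio of Wnk1 to Wnk4 in TPM had medians of 0.788 in STZ-cKOt, 0.722 in PBS-cKOt, 0.796 in STZ-control and 0.703 in PBS-control. The exons of Wnk1 add up to 22.82 kb over all its transcripts, which lowers its TPM.

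The difference between the STZ effects in cKOt and control mice was tested for each gene and called for none of the 9. Over all tested genes 7 were called, 0.0448%. Unadjusted p was under 0.05 for 4 of the 9 genes, namely Hsd11b2 (0.00471), Wnk1 (0.0283), Scnn1a (0.038) and Scnn1b (0.0462), with an edgeR adjusted p of at least 0.332. The 0.0448% is at the adjusted threshold and cannot be set against these 4. The share of all tested genes with an unadjusted p under 0.05 is not given here. DESeq2 and limma voom called 0 of the 9 as well.

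Several of the 9 genes moved with the exon-length slope of the libraries. Over the 36 libraries, as deviations from the group means, the slope correlated with Wnk1 (Pearson r = 0.78, Spearman rho = 0.71) and Nr3c2 (r = 0.65, rho = 0.66). It ran the other way for Hsd11b2 (r = -0.71, rho = -0.57), Wnk4 (r = -0.62, rho = -0.48), Scnn1b (r = -0.54, rho = -0.39) and Scnn1a (r = -0.46, rho = -0.36). Adjusted over the 9 genes, the permutation p of r was 4.5e-05 for Wnk1 and Hsd11b2, 9e-05 for Nr3c2, 0.00018 for Wnk4, 0.0014 for Scnn1b and 0.0071 for Scnn1a, and that of rho was 9e-05 for Wnk1, 0.0013 for Hsd11b2, 0.00022 for Nr3c2, 0.0073 for Wnk4, 0.033 for Scnn1b and 0.052 for Scnn1a.

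Leaving out the 2 libraries farthest from the median slope, r was 0.71 for Wnk1, 0.58 for Nr3c2, -0.65 for Hsd11b2, -0.54 for Wnk4, -0.34 for Scnn1b and -0.44 for Scnn1a. For Sgk1 it was 0.23 over all libraries (rho = 0.25, adjusted permutation p of r = 0.23), for Nedd4l 0.14 and for Scnn1g -0.07. The group medians of the slope were 0.0055 in STZ-cKOt, 0.00653 in PBS-cKOt, 0.0122 in STZ-control and 0.00727 in PBS-control. With the slope as a covariate, all 10 calls of single genes were kept, and Wnk1 was newly called with STZ in control mice. The part of the slope in the remaining differences was not tested.

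**Figure D3:**
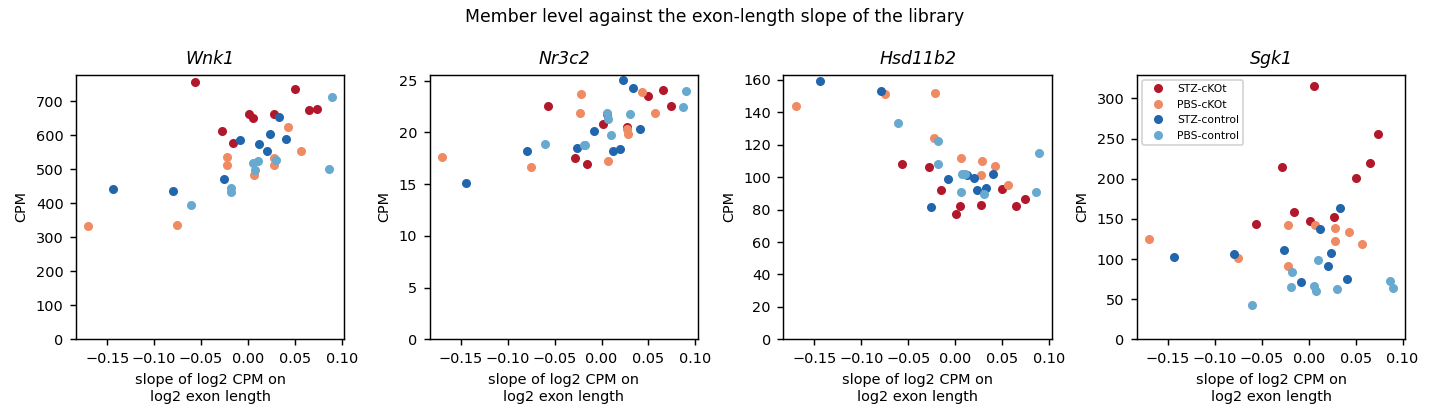
Level of Wnk1, Nr3c2, Hsd11b2 and Sgk1 in CPM (vertical axes) against the slope of log2 CPM on log2 exon length of the same library (horizontal axes). Each point is 1 of 36 libraries, coloured by group. At the 4 most negative slopes, -0.17 to -0.0753, Wnk1 lies at 334 to 441 CPM and Hsd11b2 at 144 to 159 CPM.

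Across the 36 libraries, the deviations of Scnn1a, Scnn1b, Hsd11b2 and Wnk4 from their group means went together. Of 36 pairs of the 9 genes, r was 0.81 for Hsd11b2 with Wnk4 (rho = 0.77), 0.78 for Scnn1a with Wnk4 (rho = 0.73), 0.78 for Scnn1b with Wnk4 (rho = 0.70), 0.75 for Scnn1a with Scnn1b (rho = 0.71) and 0.77 for Nr3c2 with Wnk1 (rho = 0.79). Each had an adjusted permutation p of 4.5e-05 for r and of 7.2e-05 for rho. Leaving out 2 libraries, these r were 0.72, 0.71, 0.67, 0.68 and 0.77. Sgk1 had r between -0.24 and 0.20 with each of the other genes, and no adjusted permutation p under 0.28. The pairs share depth and the slope described above.

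The genes most like each member in these deviations were picked as the 3 with the highest r among 11921 genes, with no test. Genes of the pathway were not left out of these 11921, and the picks are given for some members only. For Sgk1 they were Plat, which encodes tissue plasminogen activator (r = 0.71, rho = 0.55), Tsc22d3, a glucocorticoid-induced gene that is also in the pathway lists below (r = 0.65, rho = 0.66), and Gas7 (r = 0.64, rho = 0.50). For Hsd11b2 they were Fam193b (0.92), Nxf1 (0.89) and the ammonia transporter Rhcg (0.89), and for Wnk4 Rabep2 (0.91), Pcgf2 (0.90) and Arhgef1 (0.89). For Wnk1 they were the calcium-sensing receptor Casr (0.90), Slc8a1 (0.89) and Spire1 (0.89). Krt7, a keratin of duct epithelia, was among the 3 of both Scnn1a (0.83) and Scnn1b (0.82).

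In whole-kidney RNA, fewer cells of a type and less RNA per cell cannot be told apart. The markers of principal cells moved in both directions. Of 7 markers, Aqp3 and Aqp4 were lower and Avpr2 higher in cKOt kidneys of PBS mice, where the summed level was 191 to 337 CPM in PBS-cKOt and 226 to 370 CPM in PBS-control. Aqp3 and Aqp4 were also lower in STZ mice, with sums of 219 to 377 CPM in STZ-cKOt and 218 to 478 CPM in STZ-control. STZ raised Elf5 and Gata3 and lowered Aqp3 in control mice, and lowered Aqp3 in cKOt mice. No principal cell marker was at 0.

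Relative to the mean log2 level of these 7 markers, Sgk1 was 0.89 higher in PBS-cKOt than in PBS-control kidneys, with means of 2.42 ± 0.51 and 1.52 ± 0.33 on the log2 scale (SD, n = 9 each; exact two-sided permutation test adjusted over 36 tests, p = 0.0104). It was 1.18 higher in STZ-cKOt than in STZ-control kidneys, with means of 3.11 ± 0.50 and 1.93 ± 0.36 (exact permutation, adjusted p = 0.00444). With STZ the ratio differed by 0.69 in cKOt mice (exact permutation, adjusted p = 0.0507) and by 0.40 in control mice (exact permutation, adjusted p = 0.0844).

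Because Aqp3 and Aqp4 were themselves lower in cKOt kidneys, they raise these ratios between genotypes. Without them, in a setting added after seeing the data, Sgk1 was 0.56 higher in PBS-cKOt than in PBS-control kidneys, no longer past the threshold (exact permutation, adjusted p = 0.112), and 0.98 higher in STZ-cKOt than in STZ-control kidneys (exact permutation, adjusted p = 0.0237).

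Also relative to the 7 markers, Scnn1b was 0.43 higher (exact permutation, adjusted p = 0.045) and Scnn1g 0.47 higher (exact permutation, adjusted p = 0.04) in STZ-cKOt than in STZ-control kidneys. Without the library labelled STZ-control 2 the adjusted p was 0.0507 for both, and without the 4 libraries with steep slopes it was 0.0639 for both (exact permutation tests). Without Aqp3 and Aqp4 among the markers the differences were 0.23 for Scnn1b and 0.27 for Scnn1g (exact permutation, adjusted p = 0.28 and 0.258), so neither call holds apart from these markers. Scnn1b was 0.42 higher in PBS-cKOt than in PBS-control kidneys (exact permutation, adjusted p = 0.0507), and 0.09 higher without Aqp3 and Aqp4 (exact permutation, adjusted p = 0.682). Hsd11b2 was lower with STZ in cKOt mice, with a difference of -0.40 (exact permutation, adjusted p = 0.045). It missed the threshold without the 4 libraries (exact permutation, adjusted p = 0.0544). Without the library labelled STZ-control 2 the adjusted p was 0.0507 (exact permutation). That library is in neither group of this comparison, so only the adjustment over the tests moved. Without Aqp3 and Aqp4 the difference of Hsd11b2 was -0.42 (exact permutation, adjusted p = 0.0666).

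Against 4 markers of the distal convoluted tubule, Wnk1 differed by 0.30 with STZ in cKOt mice and by -0.33 between PBS-cKOt and PBS-control kidneys (exact permutation, adjusted p = 0.0507 for both). Of these markers the magnesium channel Trpm6 was higher in all 4 comparisons, by 0.44, 0.45, 0.56 and 0.57, and Pvalb was higher with STZ in control mice by 0.72. Their sums ran from 734 to 1120 CPM in STZ-cKOt, 608 to 1330 CPM in PBS-cKOt, 685 to 886 CPM in STZ-control and 714 to 1070 CPM in PBS-control. Of 5 markers of the connecting tubule, Trpv5 was higher in all 4 comparisons, by 0.40 to 0.43, and Klk1 was lower in STZ-cKOt kidneys against either group. Calb1, which encodes the calcium-binding protein calbindin, was higher with STZ, by 0.84 in cKOt and 0.81 in control mice, and 0.38 higher in STZ-cKOt than in STZ-control kidneys. S100g was higher in PBS-cKOt than in PBS-control kidneys (0.76). The part of cell composition in the differences of the 9 genes was not tested.

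Some markers of other cells were called, with the shares of all tested genes called at 23.4% for genotype in PBS mice, 19.6% for genotype in STZ mice, 12.3% for STZ in control mice and 11.6% for STZ in cKOt mice. Several of the counts are near those shares. Proximal tubule markers were called lower for 2 of 7 genes in cKOt kidneys of either treatment, for 1 with STZ in control mice and for 2 in cKOt mice. Of 5 macrophage markers, 4 were lower in STZ-cKOt than in STZ-control kidneys (sums of 162 to 199 and 191 to 347 CPM), 2 were lower in PBS-cKOt than in PBS-control, 2 were higher with STZ in control mice and 1 lower in cKOt mice. Fibroblast and mural markers were lower for 3 of 5 genes in PBS-cKOt and 1 in STZ-cKOt, and higher with STZ for 1 in control and 2 in cKOt mice. STZ raised 3 of 5 endothelial markers and 1 of 5 podocyte markers in cKOt mice, and 1 endothelial marker was lower in PBS-cKOt than in PBS-control. Of 6 intercalated cell markers, 3 were higher in PBS-cKOt, 2 were higher and 1 lower in STZ-cKOt, and 1 rose with STZ in control mice. Thick ascending limb markers had 1 of 5 lower in STZ-cKOt against either group, and fat cell markers had 3 of 4 lower with STZ in control mice and 1 lower in PBS-cKOt. Adrenal cortex markers summed to 0.823 to 2.85 CPM in all libraries, and Cyp11b2, the aldosterone synthase gene, had no reads.

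The wider pathway was followed in 6 lists with 65 genes, of which 63 were tested. In cKOt kidneys of PBS mice 9 of the 63 were higher and 16 lower, 39.7% against 23.4% of all tested genes, and in STZ mice 7 were higher and 11 lower, 28.6% against 19.6%. STZ raised 5 and lowered 6 in control mice, 17.5% against 12.3% of all tested genes, and raised 6 and lowered 3 in cKOt mice, 14.3% against 11.6%. Without the 4 libraries with steep slopes the STZ count in control mice was 7, with 5 higher and 2 lower. The 6 lower with all libraries were Klhl2, Mapkap1, Usp10, Oxsr1, Kcnj16 and Nr3c1. Most of these calls thus rest on the 4 libraries, and which of them stayed is not reported here. It was 6 without a filter or with only those 2 groups, and 17 with 2 surrogate variables (9 higher and 8 lower). In cKOt mice the STZ count was 19 with 2 surrogate variables (9 higher and 10 lower), 14 by limma voom (8 higher and 6 lower) and 12 with the slope as covariate (6 higher and 6 lower). In the test of the difference between STZ effects, edgeR called 0 of the 63.

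**Figure D4:**
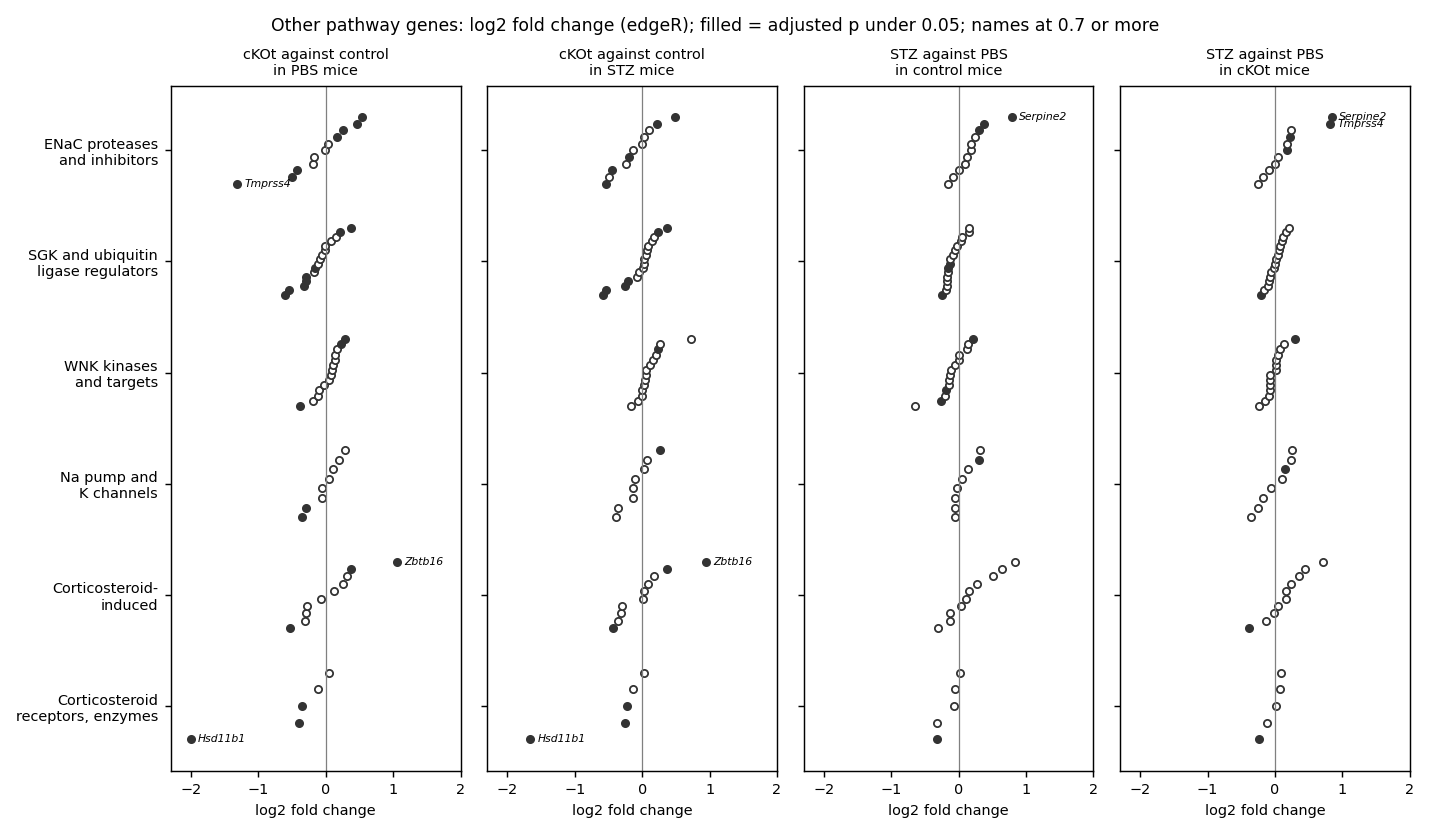
Log2 fold change (horizontal axes, edgeR) of the 63 tested genes of the 6 pathway lists in the 4 comparisons, 1 point per gene and list. Filled points have an adjusted p under 0.05, and those with a fold change of at least 0.7 in either direction are named. Hsd11b1 lies at -2.0 and -1.66 in the genotype comparisons, and Serpine2 lies right of 0 under STZ.

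Of 5 tested genes of corticosteroid receptors and metabolism, 3 were called lower in cKOt kidneys of PBS mice, where 12.5% of all tested genes were called lower, and 3 in those of STZ mice, where 10.1% were. None was called higher, and the list medians were -0.36 in PBS mice and -0.23 in STZ mice. The genes not called were Hsp90ab1 (-0.12) and Fkbp4 (0.05) in PBS mice, and Nr3c1 (0.03) and Fkbp4 (-0.13) in STZ mice. Hsd11b1, whose enzyme regenerates active corticosterone and so works opposite to Hsd11b2, had 48.3 to 76.2 CPM in PBS-cKOt, against 136 to 340 CPM in PBS-control, a difference of -2.0 ± 0.16 (edgeR adjusted p = 6.55e-13). In STZ mice it had 46.5 to 83.6 CPM in cKOt, against 107 to 302 CPM in control kidneys, a difference of -1.66 ± 0.16 (edgeR adjusted p = 7.2e-11). Neither pair of groups overlapped, and these were the largest changes of the 63 tested pathway genes in the genotype comparisons. H6pd, which supplies that enzyme with its cofactor, was lower too, with a difference of -0.40 ± 0.08 in PBS mice (edgeR adjusted p = 0.00047) and, among STZ mice, of -0.23 ± 0.08 (edgeR adjusted p = 0.0462). The glucocorticoid receptor Nr3c1 was lower in PBS-cKOt than in PBS-control kidneys (-0.36) and lower with STZ in control mice (-0.32). Its call with STZ is not reported without the 4 libraries with steep slopes. The chaperone Hsp90ab1 was lower in STZ-cKOt than in STZ-control kidneys (-0.25). With STZ the receptor co-chaperone Fkbp4 fell by 0.23 in cKOt mice.

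Corticosteroid-induced genes split. In cKOt kidneys Zbtb16 was higher by 1.06 ± 0.33 in PBS mice (edgeR adjusted p = 0.0171), and among STZ mice by 0.94 ± 0.31 (edgeR adjusted p = 0.0273), and Tsc22d3, whose product GILZ raises sodium channel activity, was higher by 0.37 ± 0.10 in both (edgeR adjusted p = 0.00748 and 0.00842). Ndrg2 was lower, with differences of -0.53 in PBS mice and -0.43 in STZ mice. Thus 2 of 10 genes were higher and 1 lower in each treatment, with a list median of 0.02 in both. Among all tested genes 10.9% were higher and 12.5% lower in PBS mice. In STZ mice 9.52% were higher and 10.1% lower, so these counts are near the shares of all genes. With STZ none of the 10 was called in control mice, and Errfi1 was lower in cKOt mice (-0.38). The shares of all tested genes called with STZ were 12.3% in control and 11.6% in cKOt mice.

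Of 16 regulators of Sgk1 and of the ubiquitin ligase, a list that also holds Tsc22d3, 6 were lower and 2 higher in cKOt kidneys of PBS mice, and 4 were lower and 2 higher in those of STZ mice. Of all tested genes 12.5% were lower and 10.9% higher in PBS mice, and 10.1% lower and 9.52% higher in STZ mice. Usp2, which encodes a deubiquitinase of the channel, had 91.9 to 135 CPM in PBS-cKOt and 146 to 185 CPM in PBS-control, a difference of -0.60 ± 0.08 (edgeR adjusted p = 6.98e-08), and in STZ mice the difference was -0.53 ± 0.08 (edgeR adjusted p = 1.02e-06). Sgk2, a relative of Sgk1, was lower, with differences of -0.55 ± 0.06 in PBS mice and -0.58 ± 0.06 in STZ mice (edgeR adjusted p = 9.57e-09 and 3.19e-09). Sgk1 and Sgk2 thus moved in opposite directions in cKOt kidneys of both treatments. Usp10, another deubiquitinase, was lower, with differences of -0.29 and -0.25, and Cul3, the scaffold of the ligase that degrades WNK kinases, was lower in PBS mice (-0.32). With STZ, Klhl2, Mapkap1 and Usp10 fell in control mice (-0.25, -0.15 and -0.13), and Sgk2 fell in cKOt mice (-0.20). The falls in control mice are among those that may not stay called without the 4 libraries with steep slopes.

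Of the proteases that cut the channel and their inhibitors, 4 of 11 were higher and 3 lower in PBS-cKOt than in PBS-control kidneys, and 2 were higher and 3 lower in STZ-cKOt than in STZ-control. The shares of all tested genes were 10.9% higher and 12.5% lower in PBS mice, and 9.52% higher and 10.1% lower in STZ mice. Prss8, which encodes the channel-activating protease prostasin, had 197 to 255 CPM in PBS-cKOt and 276 to 323 CPM in PBS-control, a difference of -0.43 ± 0.07 (edgeR adjusted p = 4.22e-06). In STZ mice the difference was -0.54 ± 0.07 (edgeR adjusted p = 8.26e-08), with 152 to 231 CPM in cKOt and 236 to 339 CPM in control kidneys. Plau, which encodes urokinase, was higher by 0.54 ± 0.10 and 0.48 ± 0.10 (edgeR adjusted p = 5.08e-05 and 0.000322). Tmprss4 was lower in PBS mice (-1.31) at levels of at most 1.48 CPM, and Tmprss2 was higher by 0.22 in STZ mice.

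STZ raised 3 of these 11 genes in control mice, Serpine2, St14 and Plau, and 4 in cKOt mice, Serpine2, Tmprss2, Tmprss4 and St14, and lowered none. Of all tested genes STZ raised 6.34% and lowered 5.93% in control mice, and raised 6% and lowered 5.63% in cKOt mice. Serpine2, a protease inhibitor, rose with STZ by 0.84 ± 0.09 in cKOt mice (16.8 to 25.9 CPM in STZ-cKOt, against 8.71 to 14.9 CPM in PBS-cKOt; edgeR adjusted p = 2.22e-08). In control mice it rose by 0.79 ± 0.09 (25.0 to 36 CPM in STZ-control, against 14.3 to 20.3 CPM in PBS-control; edgeR adjusted p = 5.98e-08). In cKOt kidneys it was lower, with differences of -0.50 in PBS mice and -0.45 in STZ mice.

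Few genes downstream of the WNK kinases changed. Stk39, which encodes the kinase SPAK that WNK kinases activate, rose with STZ by 0.30 ± 0.07 in cKOt mice (edgeR adjusted p = 0.00498) and by 0.22 ± 0.07 in control mice (edgeR adjusted p = 0.0479). Its partner Oxsr1 fell by 0.18 in control mice, and the potassium channel subunit Kcnj16 fell by 0.26. Whether these falls stayed called without the 4 libraries with steep slopes is not reported here. In PBS-cKOt kidneys Bsnd, which encodes barttin, was higher (0.23) and Kcnj16 lower (-0.38) than in PBS-control, and of 14 genes only Cab39l (0.24) was called in STZ-cKOt against STZ-control. Of all tested genes 19.6% were called in that last comparison. The cotransporter gene Slc12a3 differed by 0.14 ± 0.10 in PBS mice and 0.21 ± 0.10 in STZ mice between genotypes (edgeR adjusted p = 0.357 and 0.162).

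Of the sodium pump and potassium channel genes, Atp1b1, which encodes the beta subunit of the pump, was lower in PBS-cKOt than in PBS-control kidneys, with a difference of -0.35 ± 0.05 (edgeR adjusted p = 1.14e-06). In STZ mice the potassium channel Kcnj1 was 0.26 higher in cKOt kidneys. STZ raised Atp1b1 by 0.15 in cKOt mice and Slc4a8, a sodium-driven bicarbonate exchanger, by 0.30 in control mice. The pump is also abundant in other tubule segments.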

How the data were processed

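Whole-kidney mRNA was sequenced in 36 samples, 4 groups of 9. The deposited files hold raw read counts per gene made by the authors. Per the submitters' processing notes, cutadapt 1.8, STAR 2.5.3a, HTSeq 0.9.1 and the GRCm38 build were used, and per the labels' protocols libraries were stranded. Counting options and the annotation release are not given in the sources used here, so reads of overlapping and antisense genes may not be separated. The genes that overlap the 9 had few reads, except Cog7, which lies over an intron of Scnn1b.

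Each file held 53715 genes, and GENCODE M21 gave symbols and coordinates. Entries that name no gene were left out: multiply mapped reads were 30.87% to 42.81% of a library, reads in no gene 3.64% to 6.38% and ambiguous reads 0.582% to 0.738%. Genes were filtered with filterByExpr, scaled by TMM and tested with edgeR 4.0.16 (R 4.3.3), with 1 mean per group over 36 libraries (32 residual degrees of freedom) and Benjamini-Hochberg adjustment within each comparison. CPM use TMM library sizes, and TPM divide by the summed exon length. SE come from the F statistic. The test was also run on counts simulated from the means and spread of the main fit, for cKOt against control in PBS mice. Of 50 genes changed at each size, it recovered 34% at 1.2-fold, 82% at 1.5-fold and 90% at 2-fold. Of the calls 5.56% were false. Small changes are thus often missed.

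Ratios to segment markers (0.5 added to counts) were compared by exact permutation tests (48620 regroupings), and correlations by 100000 permutations, in Python 3.11.15 with SciPy 1.17.1. Alternatives used DESeq2 1.42.0, limma 3.58.1 and sva 3.50.0. From each pathway list, up to 4 called genes with the smallest adjusted p are named. Some genes that this rule picks are not reported here. The 9 genes, the lists and the tests were chosen with earlier results of these data known. Labels number the samples of a group but do not say that each is a separate mouse, so p-values measure the spread between these samples. Promoter sequences are from RefSeq (GRCm38.p6).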

Additional observations from a re-analysis of the deposited data

Results flagged for a closer look

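Among 45 genes (the 9 of the pathway, Arntl and 35 called genes of the wider lists), each group's highest and lowest library was set against the other 8, which makes 180 sets. A library was taken to stand apart where its gap to the next, as a share of the group's range, passed Dixon's 95% critical value for 9 libraries. Chance gives this in about 1 set in 20, and it was found in 12.

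Nedd4l was lowest in PBS-cKOt 1 at 96.9 CPM, with the next at 118 CPM. Wnk1 was highest in PBS-control 7 at 712 CPM, with the next at 528 CPM. Arntl in the library labelled STZ-control 2 was 13.4 CPM, with the next at 2.64 CPM.

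In the wider lists, STZ-cKOt 2 held the highest Bsnd (56.8 CPM) and Ndrg2 (99.2 CPM) of its group, and STZ-cKOt 1 the lowest Prss8 (152 CPM). PBS-cKOt 1 held the lowest Klhl2 (31.4 CPM). PBS-control 1 held the highest Cul3 (277 CPM), Kcnj16 (930 CPM) and Sgk2 (201 CPM), and PBS-control 7 the highest Klhl3 (69.0 CPM) and Slc4a8 (12.2 CPM).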

How the results depend on the processing

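Of 486 results for single genes of the 9 under other settings, 457 kept their direction and side of the threshold, 13 passed it newly, 6 no longer passed, 10 uncalled values changed sign and 0 called values did. The calls of Sgk1 in all comparisons, of Scnn1b in PBS mice and of Hsd11b2, Nedd4l and Wnk1 under STZ in cKOt mice held in all settings and in all 36 fits without 1 library.

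Among the moves in the counts of the 9 genes called were the following. For cKOt against control in PBS mice the count was 4 by limma voom in place of 2. In STZ mice it was 1 without a filter, 4 by voom, 4 without the 4 libraries with steep slopes and 1 to 3 leaving out 1 library. With the replicate number as a block it was 1, Wnk1 having an edgeR adjusted p of 0.06. The labels give no pairing by replicate number. Over 54 pairs of libraries with the same number, the correlation of deviations ran from -0.247 to 0.396, with a median of 0.022 and over 0.1 in 14. Pairs with different numbers were not set beside them, so these values cannot decide whether the numbers pair libraries. For STZ in control mice the count was 1 without the 4 libraries and 1 to 2 leaving out 1 library. With the slope as covariate Wnk1 was called there in addition. With 2 surrogate variables Wnk1 was called and Scnn1a was not. Over all genes, STZ in cKOt mice gave 3128 calls with 2 surrogate variables in place of 1819, and the difference between STZ effects gave 4 with the slope as covariate, 15 by voom, 20 by DESeq2 and 3 to 19 leaving out 1 library, in place of 7. The 7 pathway genes called under STZ in control mice without the 4 libraries, in place of 11, come from an alternative chosen after seeing the data, as do the marker ratios without those libraries or without Aqp3 and Aqp4. With other settings that count was 6 to 17, and that of STZ in cKOt mice 6 to 19. The causes were not tested.

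Relative to segment markers, the call of Sgk1 between genotypes in STZ mice held in all 5 alternatives. That in PBS mice missed the threshold without Aqp3 and Aqp4 (0.112), and those of Scnn1b, Scnn1g and Hsd11b2 each missed it in at least 3, at an adjusted p of 0.0507 to 0.28. For Hsd11b2 these misses include the alternative without the library labelled STZ-control 2. That library is outside its comparison, so only the adjustment over the tests moved there. Depth limits Nr3c2 most, with 227 to 552 reads per library.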
